A study of Homo sapiens with 6 samples.

Results

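HHATL and TFPI2 were followed in human stem cell-derived cardiomyocytes (hiPSC-CMs) exposed to alcohol, together with their closest relatives, HHAT and TFPI. HHATL and TFPI2 were chosen from their measured values: both stood higher in alcohol and in alcohol with losartan than in untreated cells. HHAT and TFPI were added for their sequence family, whatever their values. The 4 genes were matched by symbol among the 21134 genes of the deposited table, and all 4 passed the filter on low counts, as did 14926 genes in all.

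RNA was sequenced from 3 groups of 2 libraries each. Control hiPSC-CMs received no treatment, alcohol hiPSC-CMs received 100 mM alcohol for 24 h, and co-treated hiPSC-CMs received 100 mM alcohol and 1 μM losartan, a blocker of the angiotensin II receptor AT1R, over the same 24 h. The labels call the cells hiPSC-CMs and give the line as H9, which is a human embryonic stem cell line, so every group comes from 1 line. Losartan alone was not analysed here. Nothing in the labels says that the 2 libraries of a group came from separate cultures, so each p-value measures the spread between these libraries, which may be technical.

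HHATL and HHAT belong to the membrane-bound O-acyltransferases (MBOAT). HHAT attaches palmitate to hedgehog proteins inside the secretory pathway, a step that the ligands need for full signalling. HHATL resembles HHAT but is held to lack that activity, and it is best known from striated muscle, where it sits in the sarcoplasmic reticulum. TFPI and TFPI2 are secreted inhibitors built of Kunitz domains, small folds that block serine proteases. TFPI shuts off coagulation at tissue factor, factor VIIa and factor Xa, while TFPI2 acts poorly on tissue factor and mainly inhibits plasmin and related proteases in the extracellular matrix.

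The 4 genes lie on 4 chromosomes. By the RefSeq annotation of GRCh38.p14, HHATL is at chr3:42692663-42702798 on the minus strand, HHAT at chr1:210327328-210676290 on the plus strand, TFPI2 at chr7:93885396-93890753 on the minus strand and TFPI at chr2:187464230-187554435 on the minus strand. The values below count reads over the exons of each gene. No stretch of 25 bases is shared between the HHATL and HHAT transcripts or between the TFPI2 and TFPI transcripts of GENCODE v29, so reads of that length or more without mismatch can be assigned within each pair.

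HHATL and TFPI2 were both chosen as higher in exposed cells, and the sequence before their starts is shown as a description. The RefSeq upstream windows hold the 250 bases before each annotated start, and all 4 genes have at least 1 window among 35116. The first line gives the HHATL stretch before the outermost start that RefSeq or GENCODE gives, chr3:42702828-42703048 on the minus strand of GRCh38.p14. The second gives a stretch of 28 bases from the TFPI2 window, chr7:93890813-93890840 on the minus strand, which lies upstream of the RefSeq start but inside the first exon of a GENCODE transcript that begins at position 93890991. Both read 5′ to 3′, and capitals mark the motif matches named after them.
HHATL: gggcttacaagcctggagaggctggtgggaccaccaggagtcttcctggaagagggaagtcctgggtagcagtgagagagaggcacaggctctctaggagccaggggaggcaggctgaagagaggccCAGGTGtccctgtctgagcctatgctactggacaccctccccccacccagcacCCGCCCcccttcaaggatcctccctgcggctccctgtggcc
TFPI2: TGAATCAgccacccctcaggctCCGCCC

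In HHATL the capitals mark an E-box (CANNTG), whose first base is at position -123 from the RefSeq start, and a GC box (GGGCGG, here on the other strand) at -70. In TFPI2 they mark an AP-1 motif (TGANTCA) at -87 and a GC box at -65. Both strands were searched, and none of these matches overlap. Of all windows, 61.8% hold the E-box, 42.6% the GC box and 6.57% the AP-1 motif. HHATL has a second RefSeq window, before a start at position 42701521, which holds an E-box at -12 and no GC box. A GC box is thus found before TFPI2 and before 1 of the 2 HHATL starts, and it is a common motif. The HHATL window shown is rich in G and C (64.8%, against a median of 58.0% over all windows) but poor in CpG, with 3 CpG and an observed to expected ratio of 0.114. The TFPI2 window has a like GC content of 64.4% and 20 CpG, for a ratio of 0.773. The GLI motif (GACCACCCA), the TATA box (TATAAA), the antioxidant response motif (TGACNNNGC), the MEF2 motif and the CArG box had no match in the windows of these 4 genes. A match is a run of letters, not evidence of binding.

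HHATL was a low transcript in control hiPSC-CMs and a middling one after exposure. Its FPKM, the expected count scaled by transcript length and library reads, was 5.40 and 4.78 in the control libraries, 12.72 and 14.91 in alcohol, and 17.82 and 12.67 in co-treated cells. Both exposed groups stood above both control libraries, and they overlapped each other. These values rest on 51 and 45 expected counts in control, 120 and 135 in alcohol, and 163 and 119 in co-treated cells. Among the genes tested, HHATL ranked at percentile 35.2 to 38.7 by FPKM in control and at 63.3 to 72.6 in exposed libraries.

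The mean FPKM of HHATL was 5.09 ± 0.438 for control, 13.8 ± 1.55 for alcohol and 15.2 ± 3.64 for co-treated cells (SD, n = 2 each). Against control, the log2 fold change fitted by edgeR was 1.39 in alcohol and 1.53 in co-treated cells. Taken library by library, alcohol FPKM was 2.36 to 3.12 times that of control, and co-treated FPKM 2.35 to 3.73 times. The gene was chosen on these differences, so they are given without a test.

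TFPI2 was more abundant and tighter between replicates once exposed. Its FPKM was 15.13 and 11.45 in control, 27.27 and 28.43 in alcohol, and 38.26 and 36.11 in co-treated cells. The 3 groups did not overlap, and co-treated cells stood highest. The expected counts were 187 and 141, then 337 and 341, then 458 and 444, and the gene moved from percentile 60.5 to 69.4 of the genes tested in control to 83.1 to 83.2 in alcohol and 87.5 to 88.2 in co-treated cells.

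The mean FPKM of TFPI2 was 13.3 ± 2.60 for control, 27.9 ± 0.820 for alcohol and 37.2 ± 1.52 for co-treated cells (SD, n = 2 each). The fitted log2 fold change against control was 1.03 in alcohol and 1.43 in co-treated cells, again as a description of the values that chose it. The control libraries of TFPI2 differed more than the exposed ones. Without control replicate 1 the log2 fold change of alcohol was 1.27, and without control replicate 2 it was 0.84.

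**Figure D1:**
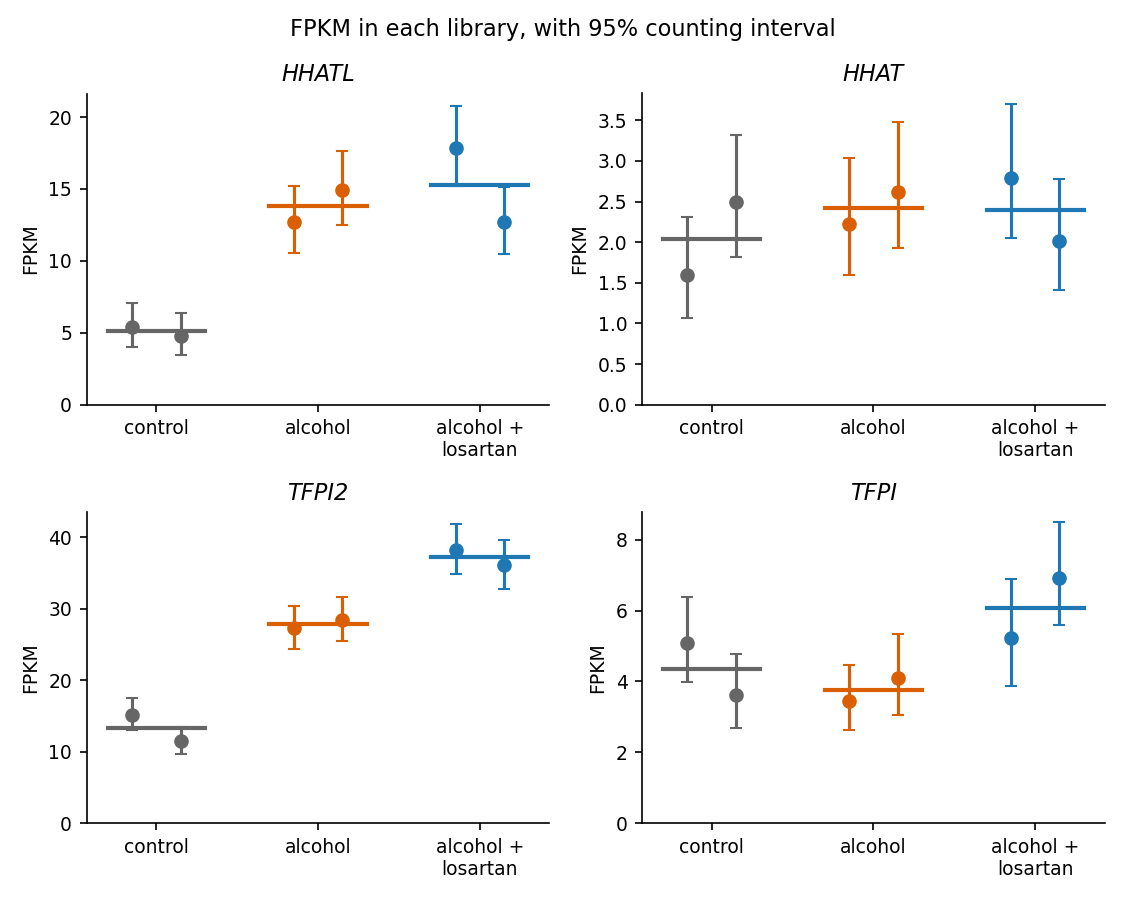
FPKM (vertical axes, from 0) of HHATL, HHAT, TFPI2 and TFPI in each of the 6 libraries, grouped as control, alcohol and alcohol with losartan. Points are libraries, bars their exact 95% Poisson interval of the count (counting error only) and lines the group means; HHATL and TFPI2 stand higher in all 4 exposed libraries than in control, while HHAT overlaps across the groups.

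How common such a pattern is sets the scale for these values. In 14.8% of the genes tested, every exposed library was above every control library. At an adjusted p under 0.05 edgeR called 0.067% of the genes tested in alcohol against control and 0.362% in co-treated cells against control, and 7 genes (0.0469%) were called higher in both. HHATL and TFPI2 are among these 7, which restates the values they were chosen on and is no test of them, and HHATL lies nearest to the edge. UNC79, an accessory subunit of a sodium leak channel, lay just outside it, with a log2 fold change of 1.70 in alcohol and 1.46 in co-treated cells. FPKM of UNC79 was 0.55 and 0.56 in control, 1.48 and 2.26 in alcohol, and 1.53 and 1.65 in co-treated cells. EFNB3, an ephrin ligand and the next gene inside, had a log2 fold change of 0.73 and 0.69.

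The rule did not use the difference between co-treated and alcohol cells, which was tested. For HHATL the co-treated and alcohol libraries overlapped, with a log2 fold change of 0.14 (SE 0.20, 95% interval -0.28 to 0.57; edgeR's quasi-likelihood test, adjusted p = 0.962). The sign rests on 1 library: without co-treated replicate 1 the value was -0.11. For TFPI2 both co-treated libraries were above both alcohol libraries, a log2 fold change of 0.41 (SE 0.14, 95% interval 0.10 to 0.72), or 1.33-fold. That difference did not pass the adjusted threshold by edgeR's quasi-likelihood test (unadjusted p = 0.0132, adjusted p = 0.836), and the adjusted p lay between 0.584 and 1.00 over 14 alternatives. In 18.0% of the genes tested both co-treated libraries were above both alcohol libraries, 2.84% were higher at an unadjusted p under 0.05, and 0.0134% were called after adjustment. For both genes, the alcohol and the co-treated libraries of this comparison are also part of the values that chose them.

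HHAT, the acylating enzyme itself, was low in every library. Its FPKM was 1.60 and 2.49 in control, 2.23 and 2.62 in alcohol, and 2.79 and 2.01 in co-treated cells, from 28 to 48 expected counts. The groups overlapped, and their means were 2.05 ± 0.629, 2.43 ± 0.276 and 2.40 ± 0.552 (SD, n = 2 each). The log2 fold change was 0.21 in alcohol against control (SE 0.32, 95% interval -0.47 to 0.89; edgeR, adjusted p = 0.862), 0.16 in co-treated cells against control (SE 0.32, interval -0.52 to 0.84; edgeR, adjusted p = 0.884) and -0.05 in co-treated against alcohol (SE 0.31, interval -0.72 to 0.62; edgeR, adjusted p = 0.992). A log2 fold change of the size seen for HHATL lies above both intervals against control, and one within them was not detectable at these counts.

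TFPI, the coagulation inhibitor, had an FPKM of 5.08 and 3.63 in control, 3.45 and 4.09 in alcohol, and 5.23 and 6.93 in co-treated cells. By FPKM both co-treated libraries stood above both alcohol libraries, as in 18.0% of the genes tested, and above both control libraries. The expected counts did not: they were 72.39 and 50 in control, 58.04 and 53 in alcohol, and 50.01 and 93.31 in co-treated cells. The transcript length that the authors assigned to TFPI differed between libraries, from 1958 bases in co-treated replicate 1 to 3315 bases in alcohol replicate 1, and FPKM divides by it.

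On counts the TFPI groups overlapped and no comparison passed the test. The log2 fold change was -0.16 in alcohol against control (SE 0.31, 95% interval -0.82 to 0.51; edgeR, adjusted p = 0.903), 0.20 in co-treated cells against control (SE 0.30, interval -0.45 to 0.85; edgeR, adjusted p = 0.838) and 0.36 in co-treated against alcohol (SE 0.30, interval -0.30 to 1.02; edgeR, adjusted p = 0.937). The ratio of mean FPKM of co-treated to alcohol was 1.61, against a fitted ratio of 1.28 from the counts. For HHATL and TFPI2 the assigned length was the same in 5 of the 6 libraries, 1875 and 2444 bases, and differed little in the other (1854 and 2442 bases).

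**Figure D2:**
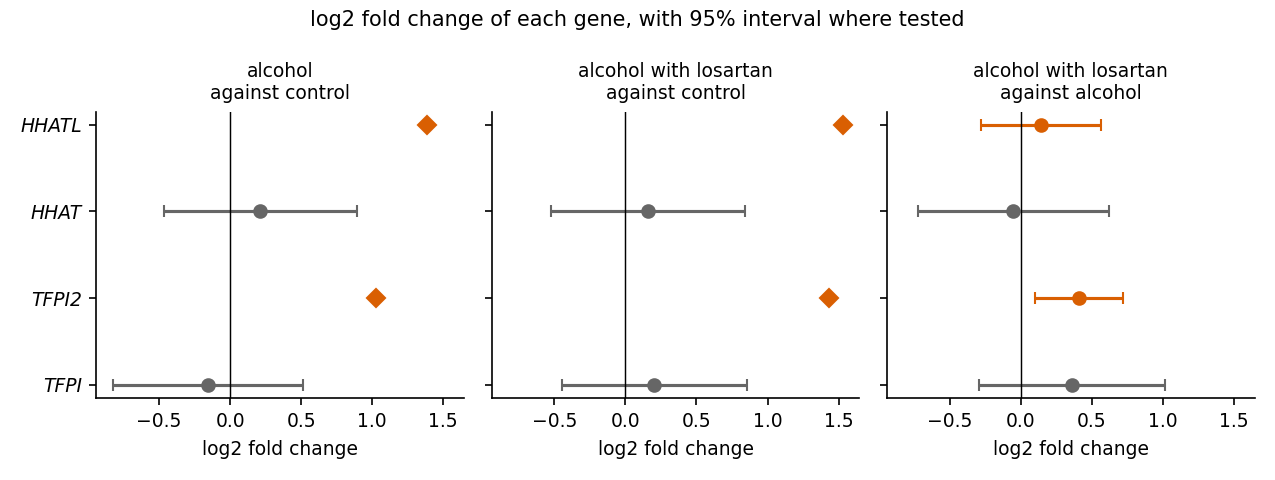
Fitted log2 fold change (horizontal axes) of the 4 genes in alcohol against control, alcohol with losartan against control, and alcohol with losartan against alcohol. Circles carry 95% intervals from edgeR; diamonds are the values that chose HHATL and TFPI2, drawn without an interval, and every interval of HHAT and TFPI spans 0.

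Each chosen gene was more abundant than its relative, and the ratio was larger after exposure. The FPKM of HHATL was 3.38 and 1.92 times that of HHAT in the control libraries, 5.70 and 5.69 times in alcohol, and 6.39 and 6.30 times in co-treated cells. The FPKM of TFPI2 was 2.98 and 3.15 times that of TFPI in control, 7.90 and 6.95 times in alcohol, and 7.32 and 5.21 times in co-treated cells. In both pairs all 4 exposed libraries were above both control libraries, which follows in part from the choice of HHATL and TFPI2.

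The hedgehog pathway was present in hiPSC-CMs mainly as receptors and effectors, with hardly any ligand. SHH was 0 in 5 libraries and 0.290 FPKM in alcohol replicate 2, DHH was 0 in 5 and 0.10 in that library, and IHH was not listed. The signal transducer SMO was the most abundant of the central components, with FPKM from 12.9 to 17.1. The receptor PTCH1 lay between 0.850 and 1.54, the ligand-binding antagonist HHIP between 0.390 and 0.890, and DISP1, which releases the ligand, between 2.25 and 3.43.

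Of the 27 genes of the hedgehog list 26 were listed and 19 tested. None passed the adjusted threshold in alcohol against control (12 higher, 7 lower), and DESeq2 and limma called none. At an unadjusted p under 0.05 there were 1 higher and 2 lower, where 5.27% of all genes tested were higher and 5.78% lower. The transcription factors GLI2 and GLI3 had a log2 fold change of -0.01 and -0.21, SMO of 0.06 and the inhibitor SUFU of 0.26 in that comparison, while the pathway target GLI1 was at most 0.180 FPKM in every library and was not tested. The median over the list was 0.07, against -0.0033 over all genes tested.

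In co-treated cells against control 1 of the 19 genes tested was called, lower, where 0.362% of all genes tested were called. At an unadjusted p under 0.05 there were 1 higher and 3 lower, where 6.26% of all genes tested were higher and 6.37% lower. The gene called was SCUBE3, a secreted protein that helps to release lipid-modified hedgehog. It had an FPKM of 19.01 and 20.42 in control, 13.45 and 18.77 in alcohol, and 11.97 and 10.94 in co-treated cells. The log2 fold change against control was -0.83 (SE 0.14; edgeR, adjusted p = 0.0276), and it lost the call when either control or either co-treated library was left out (edgeR, adjusted p from 0.0512 to 0.349). It was not called with no filter on low counts or by limma. The other 18 genes tested, 10 higher and 8 lower, did not pass, GLI3 (-0.49), SMO (-0.02), PTCH1 (-0.20) and HHIP (0.44) among them. In co-treated cells against alcohol 4 of the 19 genes tested were higher and 15 lower, and none was called. The list median there was -0.13, against 0.0023 over all genes tested.

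The other MBOAT genes tested had smaller fold changes than HHATL. Of 9 genes all were listed and 7 tested, and none passed in any comparison by edgeR, DESeq2 or limma, nor reached an unadjusted p under 0.05 by edgeR. PORCN, which acylates Wnt proteins, had an FPKM of 5.10 and 5.76 in control, 6.59 and 2.88 in alcohol, and 4.27 and 3.87 in co-treated cells. MBOAT7, which remodels phosphatidylinositol, lay between 10.7 and 13.4 in all 6 libraries, with a log2 fold change of 0.04 in alcohol and 0.03 in co-treated cells against control. The list medians against control were 0.07 and -0.02.

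HHATL is a protein of the sarcoplasmic reticulum, and the genes of that organelle that were tested had smaller fold changes. Of the 17 genes of the list 15 were tested, 11 higher and 4 lower in each comparison with control, and none was called by edgeR, DESeq2 or limma. At an unadjusted p under 0.05 there were 2 lower in alcohol, and 3 higher and 3 lower in co-treated cells, where 6.26% of all genes tested were higher and 6.37% lower. The calcium pump ATP2A2 had an FPKM of 323.7 and 358.5 in control, 358.1 and 424.6 in alcohol, and 370.6 and 393.0 in co-treated cells. Its inhibitor PLN had a log2 fold change of 0.26 and 0.25 against control, and the calcium release channel RYR2 of 0.18 and 0.29. The calcium-binding protein CASQ2 went the other way, from 10.69 and 7.15 FPKM in control to 4.80 and 4.50 in alcohol and 4.73 and 5.48 in co-treated cells, and did not pass (log2 fold change -0.98 and -0.85; edgeR, adjusted p = 0.147 and 0.136). Its paralog CASQ1 had a log2 fold change of -0.38 and -0.39. The list medians were 0.11 in alcohol and 0.10 in co-treated cells.

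For TFPI2 the comparison set was the other genes with Kunitz domains, of which 12 of 15 were listed and 10 tested. None was called in any comparison by edgeR, DESeq2 or limma, and at an unadjusted p under 0.05 there was 1 gene, lower, in alcohol against control (5.78% over all genes tested) and none in co-treated cells against control. That gene was WFDC8, at 5.30 and 5.86 FPKM in control, 1.90 and 1.66 in alcohol, and 4.62 and 3.51 in co-treated cells (log2 fold change -1.70 in alcohol, SE 0.38; edgeR, adjusted p = 0.121). Against alcohol its log2 fold change in co-treated cells was 1.17 (SE 0.40; edgeR, adjusted p = 0.836). SPINT1, an inhibitor of hepatocyte growth factor activator, had an FPKM of 9.52 and 4.41 in control, 9.99 and 6.83 in alcohol, and 9.53 and 8.77 in co-treated cells. SPINT2, its paralog, lay between 72.6 and 99.3, and APP, the amyloid precursor, between 119.2 and 154.2. For SPINT1 and SPINT2 each exposed group overlapped control. For APP and APLP2 all 4 exposed libraries were above control, as in 14.8% of the genes tested. Their log2 fold changes were small, 0.17 and 0.10 for APP, and 0.10 and 0.02 for APLP2. Of the 10 genes tested, 7 were higher and 3 lower in alcohol, and 5 higher and 5 lower in co-treated cells, against control. The list medians against control were 0.13 and -0.01.

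Tissue factor and the proteases that TFPI and TFPI2 act on were measured at low levels. F3, which encodes tissue factor, the cofactor of factor VIIa, had an FPKM of 3.73 and 4.40 in control, 5.37 and 6.90 in alcohol, and 4.33 and 4.28 in co-treated cells. F3 had a log2 fold change of 0.58 in alcohol against control, which did not pass (SE 0.24; edgeR, adjusted p = 0.401). F10, which encodes factor X, had 3.73 and 3.10 FPKM in control, 5.79 and 7.79 in alcohol, and 6.86 and 4.92 in co-treated cells. All 4 exposed libraries of F10 were above control, as for TFPI2 and for 14.8% of the genes tested. Neither comparison passed (log2 fold change 0.92, SE 0.31, and 0.71, SE 0.32; edgeR, adjusted p = 0.286 and 0.380).

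F7, which encodes factor VII, stayed below 1 FPKM in every library. Of 28 coagulation genes 25 were listed and 15 tested, and none was called in any comparison by edgeR, DESeq2 or limma. Against control, alcohol had 2 genes higher at an unadjusted p under 0.05 (5.27% over all genes tested) and co-treated cells 1 gene (6.26%). The thrombin receptor F2R lay between 9.71 and 12.1 FPKM, and the anticoagulant surface proteins THBD and PROCR between 1.85 and 2.87 and between 2.39 and 5.05. The list medians against control were 0.09 and 0.02.

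PLG, which encodes plasminogen, the precursor of the main target of TFPI2, was at most 0.190 FPKM and was not tested. Its activator PLAU had an FPKM of 3.55 and 3.56 in control, 2.92 and 2.15 in alcohol, and 3.06 and 2.77 in co-treated cells. The activator PLAT lay between 6.49 and 9.20. Of 14 plasmin and fibrinolysis genes, all listed, 8 were tested. In each comparison with control 2 were higher and 6 lower, and none was called by edgeR as fitted here, DESeq2 or limma. At an unadjusted p under 0.05, 2 were lower in each. Over all genes tested, 5.78% were lower at that level in alcohol and 6.37% in co-treated cells. ENO1, a glycolytic enzyme that also binds plasminogen at the cell surface, was lowest with a log2 fold change of -1.18 in alcohol against control (SE 0.26; edgeR, adjusted p = 0.119). It was called lower there with the replicate number as a block (-1.27; edgeR, adjusted p = 0.0260) and without alcohol replicate 1 (-1.88; edgeR, adjusted p = 0.000122), as was S100A10, part of a plasminogen receptor (-0.88; edgeR, adjusted p = 0.0434), and ENO1 was called lower in co-treated cells without alcohol replicate 1 or 2 (-0.61 in both; edgeR, adjusted p = 0.0296 and 0.0359) or with only those 2 groups fitted (-0.61; edgeR, adjusted p = 0.0394). Against alcohol, co-treated cells were called higher in ENO1 without alcohol replicate 1 (1.27; edgeR, adjusted p = 0.00429). The list median was -0.40 for alcohol and -0.36 for co-treated cells, the only list of the 6 with a median below -0.1 against control, and the median over all genes tested was -0.0033 and -0.0017.

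**Figure D3:**
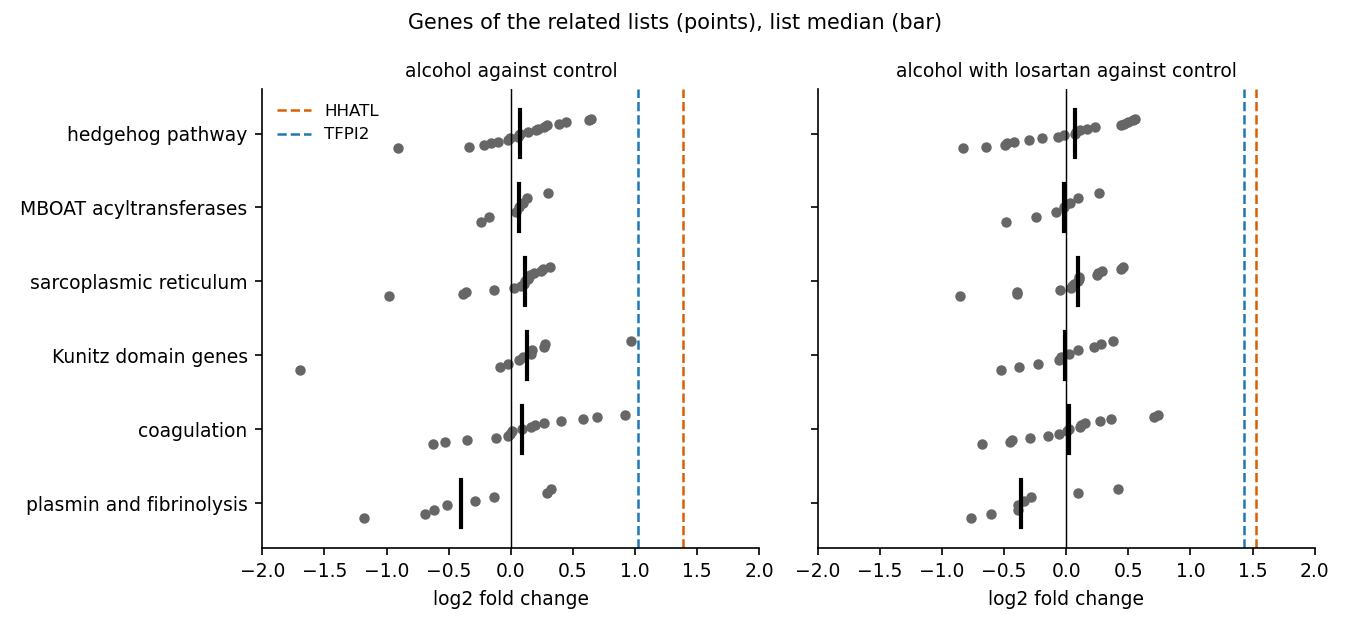
Fitted log2 fold change (horizontal axes) against control of every tested gene of 6 lists related to HHATL and TFPI2, in alcohol (left) and alcohol with losartan (right). Points are genes, black bars list medians and dashed lines HHATL and TFPI2, which lie to the right of every list gene in both panels.

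On the genome, HHATL and its neighbour KLHL40 run towards each other, with 118 bases between their 3′ ends. KLHL40, a muscle protein that stabilises thin filaments, had 6 and 1 expected counts in control, 23 and 7 in alcohol, and 16 and 16 in co-treated cells. All 4 exposed libraries were above both control libraries, as in 14.8% of the genes tested by FPKM, at counts too low for a firm comparison. Against control the log2 fold change was 2.04 in alcohol (SE 0.78; edgeR, adjusted p = 0.347) and 2.13 in co-treated cells (SE 0.78; edgeR, adjusted p = 0.268). With 1 library left out the alcohol value ran from 0.95 (without alcohol replicate 1) through 1.29 (without control replicate 2) to 3.76 (without control replicate 1), and the co-treated value was lowest at 1.36 with control replicate 2 left out and highest at 3.83 with control replicate 1 left out. The antisense gene HHATL-AS1 shares 258 bases with HHATL and was not listed in the table, and whether the counting used strand is not given in the sources used here, so reads of the 2 genes in that overlap cannot be told apart. CCDC13, on the other side, was below the filter.

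The nearest gene to TFPI2 in the table and tested was GNG11, a G protein gamma subunit, which starts 30981 bases before the start of TFPI2 on the opposite strand. Its FPKM was 42.8 and 49.7 in control, 64.7 and 81.6 in alcohol, and 66.9 and 72.4 in co-treated cells. Like TFPI2, and like 14.8% of the genes tested, it was above both control libraries in all 4 exposed libraries. It did not pass the adjusted threshold against control in alcohol (log2 fold change 0.62, SE 0.15; edgeR, adjusted p = 0.143) or in co-treated cells (0.54, SE 0.15; edgeR, adjusted p = 0.127), except that it was called in alcohol when alcohol replicate 1 was left out (edgeR, adjusted p = 0.0477). The divergent transcript TFPI2-DT and GNGT1, which lie between, were not listed. CALCRL beside TFPI was tested and not called, and KCNH1 beside HHAT was below the filter.

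**Figure D4:**
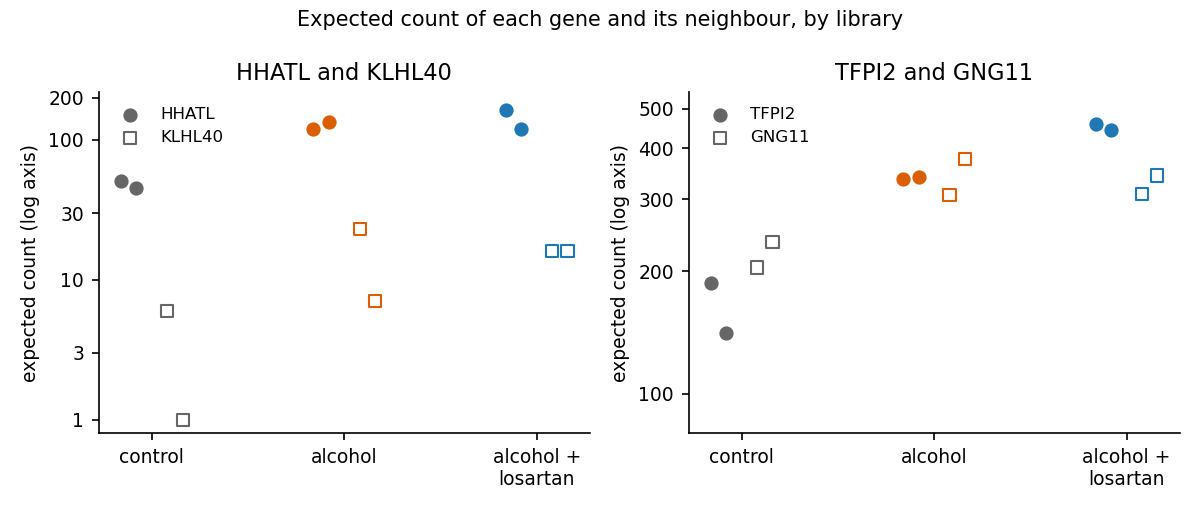
Expected counts (vertical log axes) of HHATL with KLHL40 and of TFPI2 with GNG11 in the 6 libraries. Filled circles are HHATL and TFPI2, open squares their neighbours. All 4 genes are higher in every exposed library than in control, and KLHL40 rests on 1 to 23 counts. By FPKM, 14.8% of the genes tested have that pattern.

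The genes whose levels followed HHATL most closely were found by Pearson's r of log2 CPM (counts scaled to library size) over the 6 libraries. CCDC39, a ciliary protein (r = 0.992), RPS6KA2, a ribosomal S6 kinase (0.991), ST3GAL4-AS1, an antisense RNA (0.991), ATP2A1, the calcium pump of fast skeletal muscle (0.990), and LGALS3BP, a secreted galectin-binding protein (0.989), led the list. ATP2A1 was at 0.920 and 0.900 FPKM in control, 1.23 and 1.26 in alcohol, and 1.38 and 1.29 in co-treated cells. LGALS3BP was far more abundant, at 46.4 and 46.2, then 64.2 and 65.9, then 69.5 and 60.8 FPKM. The likeness is one of shape: the log2 fold change of these 5 genes in alcohol was 0.15 to 0.88, against 1.39 for HHATL.

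For TFPI2 the closest were TTLL1, a tubulin-modifying enzyme (r = 0.998), R3HDM2 (0.992), FTH1, the ferritin heavy chain (0.991), LIAS, which makes lipoic acid in mitochondria (0.990), and ASPRV1, an aspartic protease (0.990). TTLL1 had an FPKM of 10.67 and 9.58 in control, 13.66 and 14.13 in alcohol, and 16.26 and 15.09 in co-treated cells, with the libraries in the same order as for TFPI2. FTH1 moved far less, from 476.0 and 479.2 in control to 512.0 to 547.2 in the exposed libraries.

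HHATL and TFPI2 correlated with each other at r = 0.958, place 61 among all genes for HHATL and place 68 for TFPI2. That likeness follows in part from the choice of both genes as higher in exposed cells. As many as 95 genes reached r = 0.95 with HHATL and 98 with TFPI2. The relatives did not follow: r was 0.414 between HHATL and HHAT and 0.196 between TFPI2 and TFPI. These correlations describe 6 libraries that fall into control and exposed groups, a split that all these genes share, and no test was made. By log2(FPKM + 1) in place of log2 CPM 3 of the 5 closest genes stayed for each gene, and by Spearman's rho 1 for HHATL and 3 for TFPI2. By Spearman's rho 30 genes were tied at 1 with HHATL and 32 with TFPI2, and a tied gene was counted as staying.

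The cells carried the markers of their label. All 14 cardiomyocyte markers were detected, with a summed FPKM of 37925 to 38399 in control, 27421 to 36377 in alcohol and 30859 to 33948 in co-treated cells, and none was called in any comparison. MYL7 was the largest part of that sum, at 14512 and 16180 FPKM in control, 12612 and 9321 in alcohol, and 10240 and 11847 in co-treated cells. Against control, 7 markers were higher and 7 lower in alcohol, and 5 were higher and 9 lower in co-treated cells. In bulk RNA, fewer cells of a type and less RNA per cell cannot be told apart.

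Markers of other cells were read beside HHATL and TFPI2. The skeletal muscle list summed to 3.63 to 4.06 FPKM in control, 4.68 to 6.17 in alcohol and 5.70 to 5.88 in co-treated cells, from 8 of 12 genes listed. Its defining factors MYOD1, MYF5 and PAX7 were not listed, and MYOG was at most 1.14 FPKM. TNNT3, the fast skeletal troponin T, was 1.33 and 1.52 FPKM in control and 3.18 to 3.81 in the exposed libraries, a difference that did not pass (edgeR, adjusted p = 0.390 and 0.224). MYH3, embryonic myosin heavy chain and the other gene of the list tested, went the other way, from 1.51 and 1.49 FPKM in control to 0.66 to 0.90 in the exposed libraries, and did not pass either (log2 fold change -0.97 and -1.20; edgeR, adjusted p = 0.272 and 0.134). The part of such cells in the values of HHATL was not tested.

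Endothelial markers summed to 22.0 to 22.8 FPKM in control, 23.3 to 23.4 in alcohol and 20.0 to 26.9 in co-treated cells. Of 6 tested, 2 were higher and 4 lower in alcohol against control, and 3 were higher and 3 lower in co-treated cells against control. EGFL7 made up most of the sum, with a log2 fold change of -0.11 and -0.27, and TEK had -0.45 and -0.41. PECAM1, CDH5 and TIE1 were each below 1 FPKM, VWF was at most 0.110 and CLDN5 at most 0.0800. KDR was at 4.00 and 3.70 in control, 5.18 and 6.53 in alcohol, and 6.67 and 7.70 in co-treated cells. KDR did not pass the test against control (edgeR, adjusted p = 0.235 and 0.0502). Trophoblast markers, read because the placenta makes much TFPI2, summed to 9.42 to 10.5 FPKM in control, 9.10 to 10.96 in alcohol and 7.61 to 8.14 in co-treated cells. Most of that sum was KRT7 (2.74 to 5.24 FPKM) and ERVW-1 (2.99 to 5.34), the 2 members tested, and neither was called. CGA, GCM1 and GATA3 were each below 0.5 FPKM, and CGB3 was at 0.71 and 0.57 in control, 1.32 and 1.38 in alcohol, and 0 and 0.33 in co-treated cells.

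The other lists moved as follows. Fibroblast markers summed to 421.9 to 467.2 FPKM in control, 482.4 to 516.5 in alcohol and 468.2 to 518.2 in co-treated cells, with all 4 exposed libraries above control. COL1A1, COL1A2 and COL3A1 made up most of that sum. Of 8 tested, 5 were higher and 3 lower in alcohol, and 6 higher and 2 lower in co-treated cells, against control. POSTN had a log2 fold change of -0.37 and -0.20, and THY1 of -0.52 and -0.60. The sum of endoderm and liver markers was also above control in all 4 exposed libraries, from 41.4 to 43.5 in control to 52.7 to 55.9 in exposed libraries, and pluripotency markers overlapped between 10.9 and 19.7. Smooth muscle markers went the other way, from 1724 to 1965 in control to 751 to 1491 in alcohol and 1027 to 1069 in co-treated cells, and ACTA2 fell in co-treated cells against control (log2 fold change -1.25, SE 0.20; edgeR, adjusted p = 0.0203), though not without co-treated replicate 1 or 2 (edgeR, adjusted p = 0.157 and 0.349), with no filter on low counts (edgeR, adjusted p = 0.0530) or by limma (adjusted p = 0.117 and 0.129). In alcohol against control ACTA2 had a log2 fold change of -1.04 and was not called (edgeR, adjusted p = 0.0797), but it was with the replicate number as a block (0.0297), with at least 10 counts in every library (0.0488) and without control replicate 1 (0.0370) or alcohol replicate 1 (0.000372). ACTA2 was the only marker of these lists called in any comparison by edgeR as fitted here. The part of these markers in the values of HHATL and TFPI2 was not tested.

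The libraries held 4898287 to 5051448 expected counts each, so a floor of 3 counts stands at 0.594 to 0.612 CPM, well below all 4 genes. Log2 CPM of the 2 libraries of a group correlated at 0.975 to 0.978 across genes, and the counts of every pair differed by more than sampling noise (chi-square per degree of freedom 4.71 to 7.81), so each was counted as its own replicate.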

How the data were processed

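The authors deposited, for each of 6 libraries, an expected count per gene, an estimate that need not be whole (33.9% of those above 0 are not), with a transcript length and the FPKM, and 1 table of the same FPKM for the series. The submitters' processing notes name HISAT2 2.0.4, Bowtie2 2.2.5, RSEM 1.2.12 and hg38. Genes absent from a library's table were set to 0.

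Expected counts were rounded and tested with edgeR 4.0.16 in R 4.3.3 (quasi-likelihood, two-sided, TMM, filterByExpr, all 6 libraries, Benjamini-Hochberg at 0.05 over 14926 genes, 3 comparisons). 95% intervals used the moderated residual degrees of freedom, and log2 CPM a prior count of 2. DESeq2 1.42.0, limma 3.58.1 on log2(FPKM + 1) and log2(FPKM + 0.1), other filters and size factors, the replicate number as a block and each library left out were alternatives. On simulated counts of alcohol against control edgeR called 89 of 97 genes changed by a log2 of 2, 68 of 98 changed by 1, and 7 of 14508 unchanged, among 14703 genes fitted. The simulated spread followed the fitted trend with abundance, and no gene or library had a spread of its own. These rates may therefore not hold for the real libraries. An exact permutation test of 2 against 2 libraries cannot go below p = 0.333. Poisson intervals and floors speak only to counting error.

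The members and the gene lists were chosen with earlier results of these data known. Named genes are the 4 members, key genes of each list, list genes called, the 5 genes most like HHATL and TFPI2, and annotated neighbours, some of which are not reported here. UNC79, EFNB3, ENO1, S100A10, WFDC8, CASQ1, CASQ2, DHRS7C, JSRP1, APLP2 and the single marker genes named were picked after their values were seen. Start sites, windows and motifs are from RefSeq (GRCh38.p14).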

Additional observations from a re-analysis of the deposited data

How the results depend on the processing

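HHATL and TFPI2 were higher than control in both comparisons under all 14 alternatives, a direction that the choice of these genes fixes. Leaving out each library in turn gave log2 fold changes for co-treated cells against control of 1.28 to 1.74 for HHATL and 1.24 to 1.67 for TFPI2, and for alcohol against control of 0.84 to 1.27 for TFPI2. For co-treated cells against alcohol it gave -0.11 to 0.35 for HHATL. HHAT ranged from -0.08 to 0.61 in alcohol and -0.14 to 0.55 in co-treated cells against control, and from -0.28 to 0.14 between them. TFPI ranged from -0.39 to 0.16, -0.31 to 0.58 and -0.15 to 0.74. The signs of HHAT turned without control replicate 1 (-0.076 and -0.14), co-treated replicate 1 (-0.06), alcohol replicate 2 (0.05) or co-treated replicate 2 (0.14), and those of TFPI without control replicate 1 (0.16), control replicate 2 (-0.05) or co-treated replicate 2 (-0.31 and -0.15). The cause was not tested.

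The number of genes called in alcohol against control, 10 by edgeR with all libraries, was 72 with DESeq2, 2 with no filter, 26 with at least 10 counts in every library, 3 with only the libraries of the groups compared, 0 (1545 at an unadjusted p under 0.05) and 2 with limma on log2(FPKM + 1) and log2(FPKM + 0.1), and 1 to 220 with a library left out, the highest without alcohol replicate 1. In co-treated cells against control, 54 became 123, 15, 78, 158, 2, 3 and 2 to 184 in the same order. In co-treated cells against alcohol, 2 became 5, 1, 0 (778 at an unadjusted p under 0.05), 4, 1, 2 and 1 to 24.

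The replicate numbers were taken not to pair the libraries across groups. Same-numbered deviations correlated at 0.114, -0.016 and 0.041, which alone cannot show that the libraries were unpaired. With the replicate block 48, 136 and 5 genes were called, and 1 gene of the plasmin and fibrinolysis list, as with only the groups compared. That list had 0 to 2 called with a library left out. The hedgehog list, with 1 called, had 0 with no filter and with either limma fit, and 0 to 1 with a library left out.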
